A study of Mus musculus with 24 samples.

Results

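Meis1, Meis2, Meis3, Pbx2, Pbx3, Pknox1 and Pknox2 were examined, 7 of the 22225 protein-coding genes of the mouse annotation (GENCODE vM1 on the mm9 genome, named chromosomes). They were chosen by name as Hox cofactors after measured values of these same peak lists were known, the broad H3K4me3 at the Meis2 start among them, so every value at them is a description and carries no test. All 7 were found. Each was measured over its gene body with 10 kb on each side, and the 7 windows covered 0.9995 Mb.

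Meis, Pbx and Pknox (Prep) proteins are homeodomain proteins of the TALE class, named for an amino acid loop extension in the homeodomain. Meis or Prep proteins pair with Pbx proteins, and these pairs enter larger complexes with Hox proteins, whose choice of DNA target and position along the body axis they help to set. Meis proteins mark the proximal part of the limb bud, the mesenchyme in which the paired-type homeodomain factor PRRX1 is also known to act, and Meis and Pbx proteins can occupy DNA before other factors arrive.

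ChIP-seq peak lists from 3 kinds of cultured mouse fibroblast were used: 7 lists of histone H3 trimethylated at lysine 4 (H3K4me3, a mark of gene starts), 7 of histone H3 acetylated at lysine 27 (H3K27ac, a mark of active promoters and enhancers), and 3 of PRRX1. Mouse embryonic fibroblasts (MEF, labelled C57BL/6) came from embryos of day 10 to 13. The WT MEF were compared with MEF carrying the Prrx1tm1Jfm mutation, labelled KI, and with MEF in which a guide RNA and Cas9 had disrupted Prrx1, labelled SG. The labels do not spell KI out. The study describes it as a lacZ insertion into the Prrx1 homeodomain, with the line backcrossed to C57BL6. The labels give C57BL/6 as its strain, while their growth protocol writes the line's name with 129S. Cancer-associated fibroblasts (MMTV-CAF, FVB/NJ) came from mammary tumours of MMTV-PyMT mice, in which the MMTV promoter drives an oncogene in the mammary epithelium, and wound-healing fibroblasts (C57BL/6) from dorsal skin at day 10 after wounding. Both were present as WT and SG, and the guide-RNA control is called WT here. Every culture, controls included, carried the papillomavirus oncogenes E6 and E7 for immortalisation. PRRX1 was profiled in WT cells only. Each group had 1 list, so no difference below has a replicate check and no p-value is given, and the fibroblast types also differ in age and tissue, and MMTV-CAF from the other two in strain, which cannot be told apart from type here. Because the cells were measured in bulk, fewer cells carrying a mark and less of the mark per cell cannot be told apart either.

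The lists differed in strength. The H3K27ac lists held 29325 to 61603 summits and the H3K4me3 lists 13125 to 29166 regions, and the MEF KI list was the smallest for both marks, with median −log10 p of 11.9 and 9.93. Of 8 fibroblast markers, 6 to 8 had an H3K4me3 region over a transcription start site (TSS) in each list. Of 6 epithelial markers 0 or 1 did (Cdh1), of 4 endothelial markers 0 or 1 (Kdr), and of 4 immune markers 0, the pan-leukocyte gene Ptprc included. The Kdr region was over 4 kb in both wound-healing lists. H3K27ac summits at the fibroblast markers numbered 40 to 145 per list. They were not absent at the others, with 1 to 10 (epithelial), 5 to 13 (endothelial) and 3 to 13 (immune).

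PRRX1 summits were found in 2 of the 7 windows in MEF, in 5 in MMTV-CAF and in 5 in wound-healing fibroblasts, whereas 7.06%, 22.1% and 16.8% of all protein-coding genes held a summit in their window. The windows held 4, 5 and 9 summits in the 3 types, and the median gene held 0. Long genes offer more room, since Meis1, Meis2, Pbx3 and Pknox2 span 139, 203, 202 and 256 kb against 11.1 kb for Meis3, 6.13 kb for Pbx2 and 42.9 kb for Pknox1. Meis3 held no summit in any type. Of the 18 summits, 16 lay in introns, 5 lay inside an H3K4me3 region of the same fibroblast type and 4 had an H3K27ac summit of that type within 500 bp. In an H3K4me3 region these were 0 of 4 in MEF, 3 of 5 in MMTV-CAF and 2 of 9 in wound-healing cells, beside 7.02%, 44.7% and 28.2% of all summits of the lists. With H3K27ac nearby they were 0 of 4, 2 of 5 and 2 of 9, beside 20.5%, 45.4% and 33.2%. No site was shared by all 3 types, whereas 17.6%, 6.76% and 9.48% of all MEF, MMTV-CAF and wound-healing summits had a summit of both other types within 500 bp. Sites shared by a pair of types (summits within 500 bp) accounted for 8 of the 18 summits, at Pbx2, Pbx3, Pknox1 and Pknox2. By type these were 1 of 4, 3 of 5 and 4 of 9, beside 51.6%, 25.2% and 41.2% of all summits with one in at least 1 other type. Of the 18, 4 had a −log10 p under 5.

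The DNA under these summits is shown for the 4 shared sites and for both summits of Meis2, which include the highest in MEF. Each stretch is the mm9 reference on the strand of the gene, 100 bp to each side of the summit, except that bases of the Pknox1 first exon were left out. Capitals mark 3 words found on either strand: TAATTA, bound by paired-type homeodomains, TGACAG (or CTGTCA), bound by Meis and Prep proteins, and TGATTNAT (or ATNAATCA), bound by Pbx together with Hox proteins. Where words overlap, the capitals run together.
Pbx2, chr17:34728805-34729005, plus strand, wound-healing fibroblasts: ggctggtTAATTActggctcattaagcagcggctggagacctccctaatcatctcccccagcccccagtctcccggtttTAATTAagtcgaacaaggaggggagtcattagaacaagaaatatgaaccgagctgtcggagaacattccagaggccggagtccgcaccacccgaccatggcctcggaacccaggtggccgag
Pknox1, chr17:31701834-31701942, plus strand, wound-healing fibroblasts: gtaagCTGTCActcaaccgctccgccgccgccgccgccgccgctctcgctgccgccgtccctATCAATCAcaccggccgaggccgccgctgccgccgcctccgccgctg
Pknox2, chr9:36951016-36951216, minus strand, wound-healing fibroblasts: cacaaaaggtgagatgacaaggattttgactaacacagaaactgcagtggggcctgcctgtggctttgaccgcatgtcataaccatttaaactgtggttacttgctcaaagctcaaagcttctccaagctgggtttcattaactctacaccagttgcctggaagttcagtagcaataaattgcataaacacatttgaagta
Pbx3, chr2:34202611-34202811, minus strand, MEF: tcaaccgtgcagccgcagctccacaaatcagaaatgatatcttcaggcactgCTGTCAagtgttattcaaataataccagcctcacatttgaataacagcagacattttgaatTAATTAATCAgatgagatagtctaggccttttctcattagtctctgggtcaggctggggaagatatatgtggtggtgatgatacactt
Meis2, chr2:115892638-115892838, minus strand, MMTV-CAF: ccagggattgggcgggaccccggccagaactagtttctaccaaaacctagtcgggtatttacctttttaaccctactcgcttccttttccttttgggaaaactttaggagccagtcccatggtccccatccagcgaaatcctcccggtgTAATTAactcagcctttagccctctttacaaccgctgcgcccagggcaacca
Meis2, chr2:115826041-115826241, minus strand, MEF: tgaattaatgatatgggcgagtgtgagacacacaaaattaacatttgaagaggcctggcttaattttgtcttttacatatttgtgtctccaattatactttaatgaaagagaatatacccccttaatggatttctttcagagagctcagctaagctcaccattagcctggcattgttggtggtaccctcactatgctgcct

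The Pbx2 stretch holds 2 copies of TAATTA. It lies in an intron, 692 bp after the first TSS by the MMTV-CAF summit and 694 bp by the wound-healing summit, and 305 and 303 bp before the next annotated TSS. The wound-healing summit had a −log10 p of 17.5 and the MMTV-CAF summit 8.53, and an H3K27ac summit lay within 500 bp in all 7 lists. The site was thus listed in both adult types at a promoter that was acetylated in every list, and was absent from the MEF list.

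At Pknox1 the shared site straddles the junction of the first exon, which is non-coding, and the first intron, 101 bp (MMTV-CAF) and 124 bp (wound-healing) after the TSS. It holds no TAATTA. It holds a CTGTCA and an ATNAATCA word, those of the Meis and Prep proteins and of Pbx with Hox, in the intron part of the stretch. Here the MMTV-CAF summit was the higher, with a −log10 p of 12.4 against 7.30. No H3K27ac summit lay within 500 bp in any list, and the nearest of the same type were 643 and 602 bp away.

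The strongest PRRX1 site of the family in both adult types was in Pknox2, 3.77 and 3.78 kb after the first TSS, in an intron. Its −log10 p of 25.3 ranked 87 of 5698 in the wound-healing list, and its 13.1 ranked 851 of 8000 in MMTV-CAF. None of the 3 words occurs in this stretch. The site lay outside the H3K4me3 regions of both types, and 1 of the 7 H3K27ac lists had a summit within 500 bp.

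Pbx3 carried 3 of the 4 MEF summits and 4 of the 9 wound-healing summits, all intronic and none in an H3K4me3 region or with an H3K27ac summit within 500 bp in any list. The shared site, 25.9 kb (MEF) and 26.1 kb (wound-healing) after the first TSS, holds all 3 words around the MEF summit, with TAATTA running into ATNAATCA, while the 201 bp around the wound-healing summit hold TAATTA and TGATTNAT but no TGACAG. Its −log10 p was 8.93 in MEF and 4.58 in wound-healing fibroblasts. The other Pbx3 summits lay 115 and 117 kb into the gene in MEF and 62.4, 63.8 and 135 kb into it in wound-healing fibroblasts, with −log10 p from 3.79 to 8.31. No Pbx3 summit was listed in MMTV-CAF.

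The Meis genes held 4 summits, each in a single type. Meis2 had the highest MEF summit of the family, with a −log10 p of 9.71 at 65.4 kb after its first TSS, in an intron with none of the 3 words. In MMTV-CAF its summit lay 1163 bp before the first TSS, inside an H3K4me3 region and beside 1 TAATTA, with a −log10 p of 7.82. The non-coding genes G630016G05Rik and 2700033N17Rik start 1386 and 1605 bp before that TSS, so both starts lay nearer to the summit than the Meis2 start. Meis1 had a summit at 98.7 kb in MMTV-CAF (7.12) and at 6.20 kb in wound-healing fibroblasts (4.35), each with 1 TAATTA.

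Across the family TAATTA lay within 100 bp of 3 of 4 summits in MEF, 3 of 5 in MMTV-CAF and 4 of 9 in wound-healing fibroblasts. Over all summits the shares were 69.1%, 35.5% and 41.9%, and at positions 2 kb away they were 6.91%, 5.84% and 6.16%. TGACAG was present at 4 of the 18 and TGATTNAT at 4 of the 18, with shares of all summits from 10.9% to 13.1% and from 7.85% to 14.1%. At positions 2 kb away these shares were 12.5% to 12.9% and 2.9% to 3.5%. A shared site counts once per type in all these numbers. The 4 TGATTNAT summits were those of the shared Pknox1 and Pbx3 sites, and the Pknox1 site counted in both adult types for TGACAG. In the 300 bp from 250 bp before to 50 bp after the first TSS of a coding transcript (for Pbx3 a TSS inside the gene, downstream of the first), TAATTA and TGATTNAT occurred at 0 of the 7 genes and TGACAG at 1 (Pknox2). Over all promoters the shares were 4.79%, 2.79% and 18.0%. Pbx3 and Pknox1 were rich in CpG at these starts, with 52 and 43 CpG in 300 bp, more than 99.3% and 96.9% of promoters. The other 5 had 8 to 19 beside a median of 12.

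**Figure D1:**
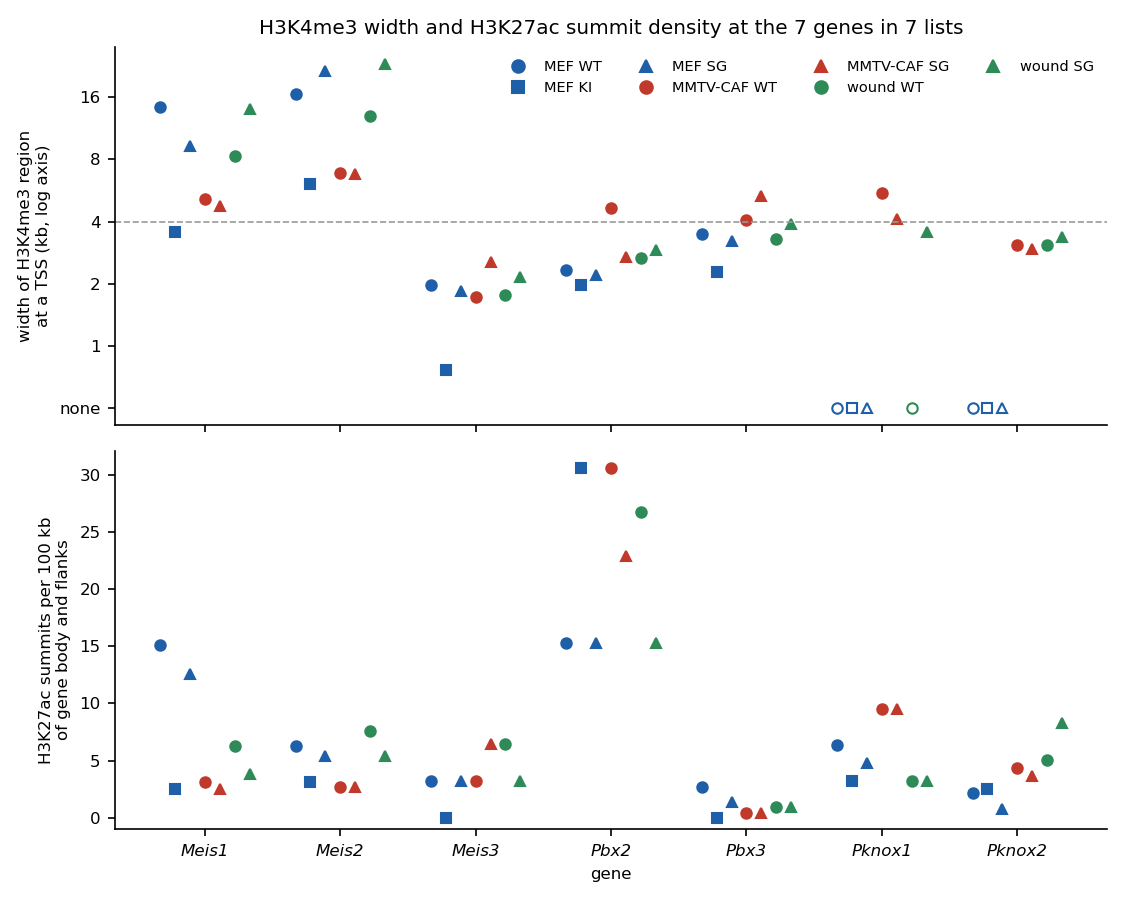
Width of the widest H3K4me3 region over a TSS (upper panel, kb, log axis, open symbols where no region covered a TSS, dashed line at 4 kb) and H3K27ac summits per 100 kb of gene body and flanks (lower panel) for each gene, 1 symbol per list, coloured by fibroblast type and shaped by genotype. Meis1 and Meis2 had the widest regions, and Pbx2, whose window holds several other promoters, had the densest summits.

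Meis1 and Meis2 lay among the genes with the broadest H3K4me3. The widest region over a Meis1 TSS spanned 14328 (WT), 3542 (KI) and 9278 bp (SG) in MEF, 5152 (WT) and 4782 bp (SG) in MMTV-CAF, and 8289 (WT) and 14033 bp (SG) in wound-healing cells. Meis1 (chromosome 11, 18780433 to 18918961, minus strand) encodes a cofactor known from blood stem cells, leukaemia and the limb. Its width was above 92.2% to 99.99% of protein-coding genes (ties split evenly), lowest in MMTV-CAF WT and highest in MEF WT. The fold enrichment over input, as deposited, ran from 3.66 in MEF KI to 9.79 in MMTV-CAF WT, so the order of the folds was not the order of the widths.

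Meis2 (chromosome 2, 115688800 to 115891575, minus strand), a close paralogue with roles in the limb, heart and palate, had still wider regions. In MEF they spanned 16496 (WT), 6097 (KI) and 21387 bp (SG). The MMTV-CAF pair measured 6870 (WT) and 6814 bp (SG), and the wound-healing pair 12893 (WT) and 23081 bp (SG). The folds ran from 3.82 (MEF KI) to 13.1 (MMTV-CAF SG). In the MEF and wound-healing WT and SG lists the region reached 7150 to 10956 bp before the first TSS, and in MEF KI and MMTV-CAF it reached 2346 to 2563 bp before it. In all 7 lists it therefore covered the start of the divergent long non-coding gene G630016G05Rik, 1386 bp before the Meis2 start, and the reads of both promoters fell in a single region.

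The third paralogue, Meis3 (chromosome 7, 16760729 to 16771853, plus strand), had a narrow region of 1964 (WT), 768 (KI) and 1845 bp (SG) in MEF, 1728 (WT) and 2550 bp (SG) in MMTV-CAF, and 1759 (WT) and 2153 bp (SG) in wound-healing cells. The folds ran from 2.61 (MEF KI) to 11.3 (MMTV-CAF SG). The Meis3 region was present in all 7 lists and under 4 kb in all 7, with a width above 55.4% to 68.6% of genes.

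The Pbx genes encode the shared partner of Meis, Prep and Hox proteins. Pbx2 (chromosome 17, 34728211 to 34734345, plus strand) had regions of 2341 (WT), 1966 (KI) and 2207 bp (SG) in MEF, 4629 (WT) and 2690 bp (SG) in MMTV-CAF, and 2661 (WT) and 2905 bp (SG) in wound-healing cells. In MMTV-CAF WT the region ran from 1479 bp before to 3149 bp after the first TSS, over the body of the neighbour Gpsm3, and in the other 6 lists it began 30 to 447 bp after that TSS. The folds ran from 2.89 (MEF KI) to 11.2 (wound-healing SG).

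Pbx3 (chromosome 2, 34026977 to 34228660, minus strand) had regions of 3488 (WT), 2270 (KI) and 3224 bp (SG) in MEF, 4080 (WT) and 5344 bp (SG) in MMTV-CAF, and 3288 (WT) and 3890 bp (SG) in wound-healing cells. The folds ran from 3.04 (MEF KI) to 11.4. The 4080 bp of MMTV-CAF WT lay just over the 4 kb limit used here for a broad region, and the 3890 bp of wound-healing SG just under it.

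Pknox1 and Pknox2 encode the Prep proteins, which pair with Pbx as Meis proteins do. At Pknox1 (chromosome 17, 31701718 to 31744638, plus strand) a single region covered the TSS in MMTV-CAF WT (5493 bp), MMTV-CAF SG (4133 bp) and wound-healing SG (3558 bp), with folds of 8.09, 9.15 and 8.88. In the 3 MEF lists and in wound-healing WT no region covered it, and instead a pair of regions flanked the TSS with a gap of 405, 790, 430 and 417 bp in MEF WT, KI, SG and wound-healing WT. These pairs spanned 3447, 2718, 3362 and 3563 bp. A value of no region at Pknox1 therefore meant a gap over the start, not absence of the mark. The wound-healing PRRX1 summit lay just inside the downstream region of its type, which began 76 bp after the TSS.

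At Pknox2 (chromosome 9, 36698570 to 36954899, minus strand) the region spanned 3084 (WT) and 2961 bp (SG) in MMTV-CAF and 3076 (WT) and 3372 bp (SG) in wound-healing cells, with folds of 8.30 to 15.4. In MEF WT, KI and SG it began 83, 199 and 154 bp after the first TSS, covered no annotated TSS and spanned 2351, 1972 and 1743 bp. Per list, 5 to 7 of the genes had a region over a TSS, beside 41.5% to 55.4% of all protein-coding genes. With a region allowed to lie up to 1 kb from a TSS, all 7 genes had one in all 7 lists. The share of all genes under that wider rule was not computed.

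Regions over 4 kb were counted next. In MEF WT 2 of the 7 genes had one (Meis1 and Meis2), beside 5.02% of protein-coding genes. In MEF KI 1 did (Meis2, background 1.48%), and in MEF SG 2 did (Meis1 and Meis2, background 3.6%). In MMTV-CAF WT 5 did (Meis1, Meis2, Pbx2, Pbx3 and Pknox1), in a list where 15.2% of genes passed, and in MMTV-CAF SG 4 did (the same without Pbx2), where 12.8% passed. In wound-healing WT and SG 2 did (Meis1 and Meis2), beside 4.83% and 8.58%. Only Meis2 passed in all 7 lists.

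**Figure D2:**
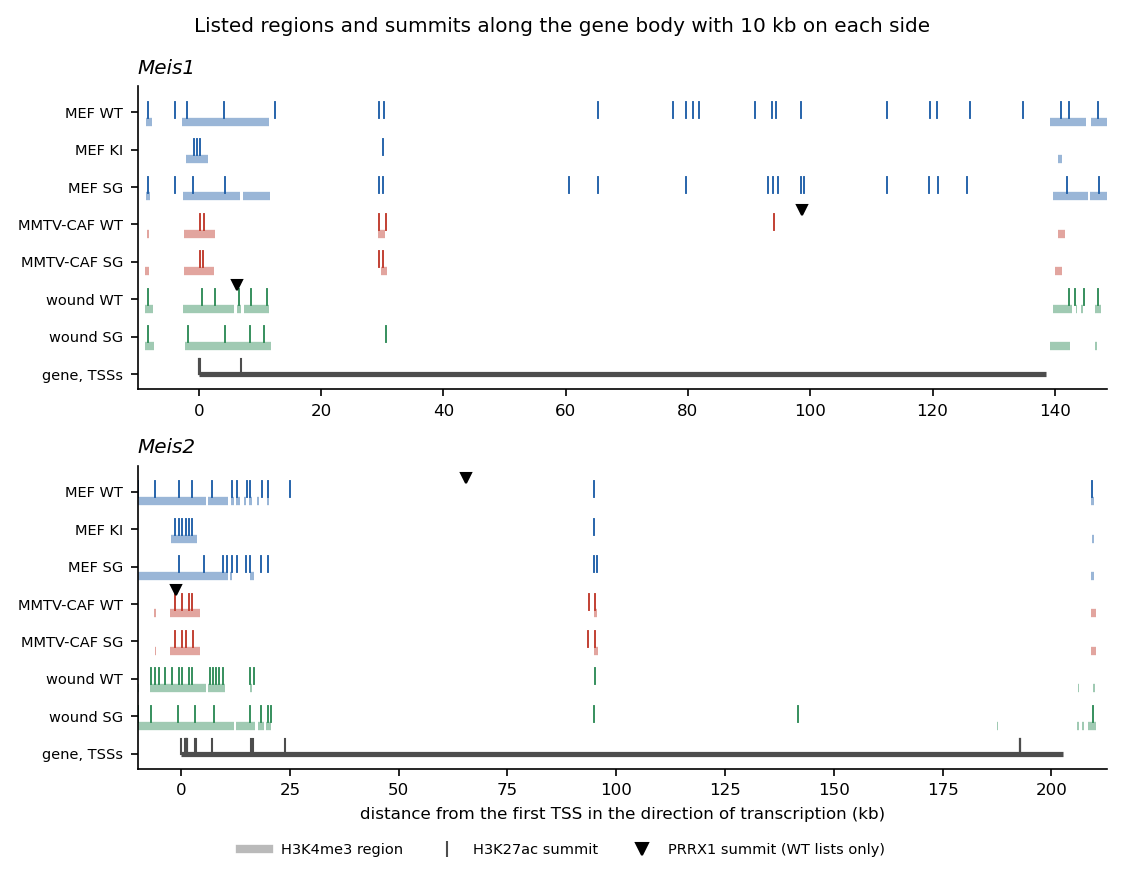
H3K4me3 regions (bars), H3K27ac summits (vertical lines) and PRRX1 summits (black triangles, profiled in WT only) along Meis1 and Meis2 with 10 kb on each side, against the distance from the first TSS in kb, 1 line per list. The start regions were short in MEF KI and MMTV-CAF, and the Meis1 summits in the body of the gene were dense in MEF WT and SG.

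H3K27ac followed a different order from H3K4me3 at several members. The Meis1 window held 24 (WT), 4 (KI) and 20 (SG) summits in MEF, 5 (WT) and 4 (SG) in MMTV-CAF, and 10 (WT) and 6 (SG) in wound-healing cells. As a share of the summed −log10 p of its list, the MEF window took 0.0560% (WT), 0.00939% (KI) and 0.0506% (SG). The shares were 0.00587% (WT) and 0.00503% (SG) for MMTV-CAF, and 0.0366% (WT) and 0.0144% (SG) for wound-healing cells. MEF WT and SG were high, and both MMTV-CAF lists and MEF KI were low. The window also holds the start of the long non-coding gene 8430419K02Rik, past the end of Meis1. In that flank MEF WT had summits with −log10 p of 46.7, 80.2 and 90.2, and MEF SG of 108 and 114. When summits within 500 bp were merged across lists, Meis1 had 33 sites, of which 0 were in all 7 lists, 17 were in MEF lists only and 15 were in a single list. The merge was made at the 7 genes only, so site counts here and below have no share over all sites beside them. MEF also gave more lists than either other type. At the start, 1 site was in 5 lists. The next, with its highest summit 1846 bp before the first TSS, was in MEF WT and wound-healing SG. Every list thus had a summit near the start. The site in most lists lay 30158 bp after the first TSS and was missing only from wound-healing WT, with −log10 p from 7.92 to 35.0 in the other 6.

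The Meis2 window held 14 (WT), 7 (KI) and 12 (SG) summits in MEF, 6 in each MMTV-CAF list, and 17 (WT) and 12 (SG) in wound-healing cells. Of its 33 sites, 1 was in all 7 lists, 95029 bp after the first TSS in an intron, with −log10 p from 7.41 (wound-healing WT) to 28.0 (MMTV-CAF SG). Otherwise 11 sites were in wound-healing lists only and 6 in MEF lists only, again with no share over all sites to set beside them. The other Meis2 summits in MMTV-CAF lay at the start of the gene or beside this intronic site, as the plot along the gene shows.

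Meis3 had 1 (WT), 0 (KI) and 1 (SG) summits in MEF, 1 (WT) and 2 (SG) in MMTV-CAF, and 2 (WT) and 1 (SG) in wound-healing cells, nearly all at one promoter site that was listed in 6 of 7 lists. Pbx3 had 6, 0 and 3 in MEF, 1 in each MMTV-CAF list and 2 in each wound-healing list, so a gene of 202 kb had few summits, and none in MEF KI. Its H3K4me3 region was nevertheless listed in all 7.

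The Pbx2 window held 4 (WT), 8 (KI) and 4 (SG) summits in MEF, 8 (WT) and 6 (SG) in MMTV-CAF, and 7 (WT) and 4 (SG) in wound-healing cells. It also holds the starts of Gpsm3, Ager, Rnf5 and Agpat1, and 3 of its 11 sites were in all 7 lists. The site with its highest summit 1120 bp after the first Pbx2 TSS had a −log10 p of 76.5 (WT), 15.3 (KI) and 107 (SG) in MEF, 20.4 (WT) and 18.9 (SG) in MMTV-CAF, and 25.5 (WT) and 94.4 (SG) in wound-healing cells. These values were not scaled to the list totals, which differed and were lowest for MEF KI, so no order across lists is drawn from them. The MMTV-CAF lists alone also had a site 99 bp before that TSS, with 20.4 (WT) and 10.9 (SG), and a stronger one 1701 bp after it, with 38.2 (WT) and 37.8 (SG).

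Pknox1 had 4, 2 and 3 summits in MEF, 6 in each MMTV-CAF list and 2 in each wound-healing list. Of its 6 sites, 2 were in all 7 lists, on either side of the TSS at 522 bp before and 792 bp after it. Pknox2 had 6 (WT), 7 (KI) and 2 (SG) summits in MEF, 12 (WT) and 10 (SG) in MMTV-CAF, and 14 (WT) and 23 (SG) in wound-healing cells. Like Pbx2, it had more summits in MEF KI than in MEF WT. It had 27 sites, of which 12 were in wound-healing lists only and 2 in all 7, also with no share over all sites to compare. Those 2 lay 744 bp and 92585 bp after the first TSS. The distal site had −log10 p of 12.9 (WT), 10.3 (KI) and 7.61 (SG) in MEF, 65.2 (WT) and 67.2 (SG) in MMTV-CAF, and 42.8 (WT) and 51.3 (SG) in wound-healing cells, so its adult values all lay above its MEF values.

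**Figure D3:**
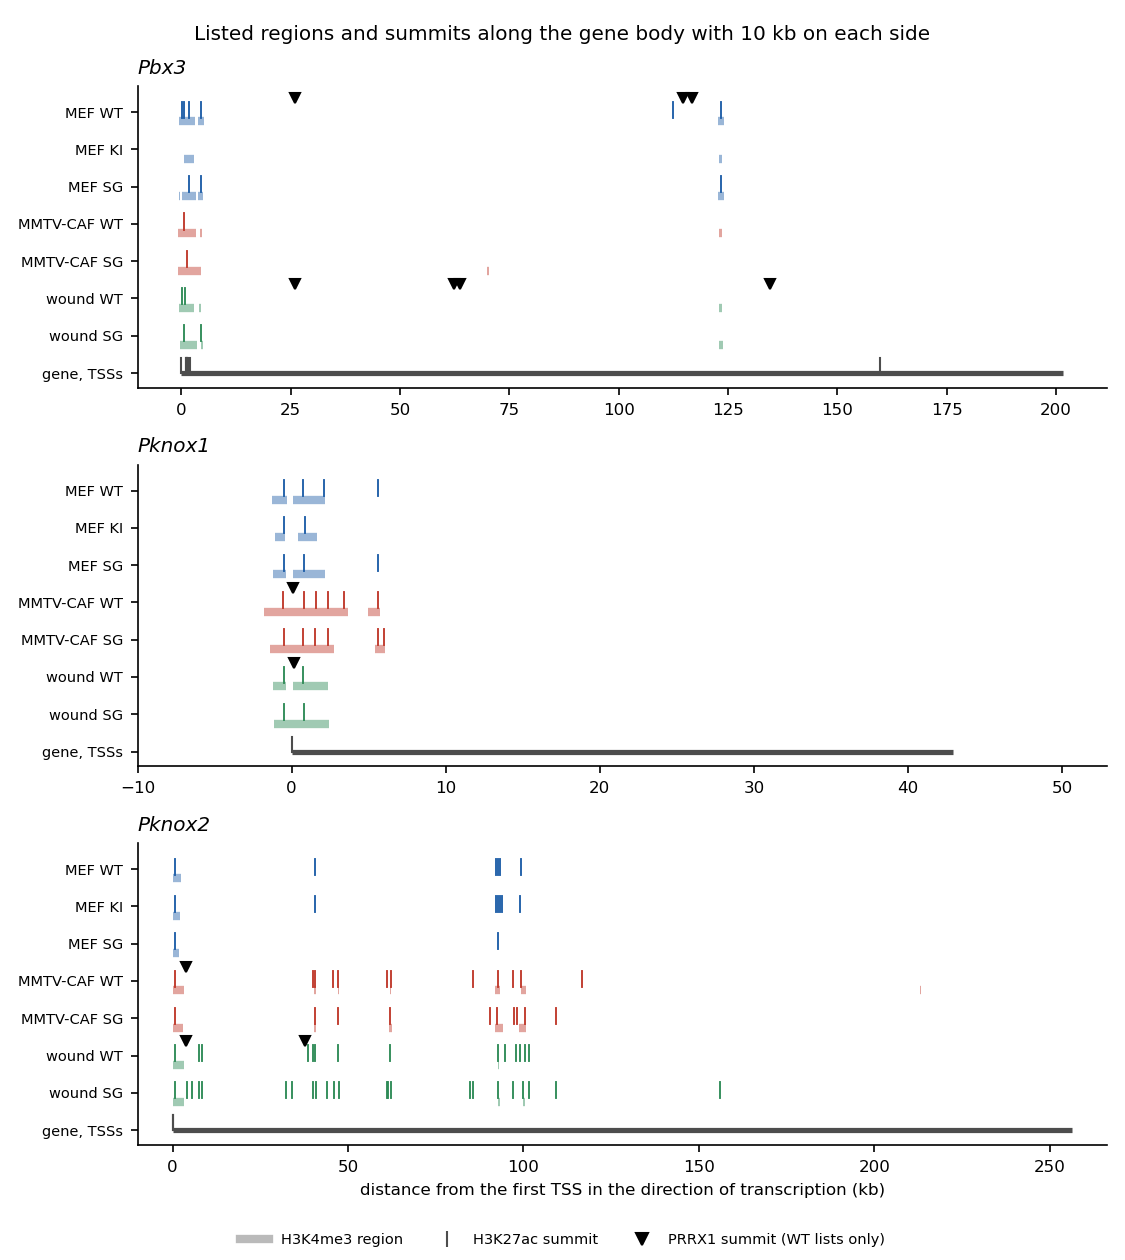
H3K4me3 regions (bars), H3K27ac summits (vertical lines) and PRRX1 summits (black triangles, WT only) along Pbx3, Pknox1 and Pknox2 with 10 kb on each side, against the distance from the first TSS in kb. PRRX1 summits of Pbx3 lay away from both histone marks, those of Pknox1 at the start, and intronic H3K27ac summits of Pknox2 were more numerous in MMTV-CAF and wound-healing fibroblasts than in MEF.

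The 3 WT types were compared to show where the genes differ by fibroblast origin. A difference was named when it reached 1.5-fold among genes with a value in both lists, and H3K27ac sums were scaled to the list total. Between MEF and MMTV-CAF, Meis1 and Meis2 went against the list as a whole. Their H3K4me3 regions were 2.78 and 2.40 times narrower in MMTV-CAF WT than in MEF WT, although the median gene was 1.32 times wider. With Pbx2 wider by 1.98-fold, 2 of the 5 genes with a region in both lists were narrower (2.13% of all genes) and 1 wider (29% of all genes). In H3K27ac, 4 of 7 were lower, Meis1 by 9.54-fold, Meis2 by 3.85-fold, Pbx3 by 3.82-fold and Meis3 by 1.88-fold (background 16.6%), and Pknox2 was higher by 2.62-fold (background 20.2%). Without scaling Pbx2 and Pknox1 were higher too, with log2 ratios of 0.69 and 0.63.

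Against MEF WT, the widest wound-healing WT region at Meis1 was narrower by 1.73-fold, 1 of 5 genes (background 6.03%), and 0 of 5 were wider (background 4.11%). The wound-healing mark at Meis1 was split, however, and when regions separated by at most 1 kb (a limit chosen after the values were seen) were joined, 3 regions spanned 13949 bp beside 14328 bp in MEF WT. Its H3K27ac sum was lower by 1.53-fold and that of Pbx3 by 2.28-fold (2 of 7, background 12.5%), and Pknox2 was higher by 4.36-fold (1 of 7, background 25.9%). The Meis2 H3K27ac sum differed by 1.05-fold between wound-healing and MEF WT. Scaling decided this, since without it the Meis2 log2 ratio was -0.71 and 5 of 7 genes were lower.

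Between the adult types, MMTV-CAF WT had narrower H3K4me3 than wound-healing WT at Meis1 (1.61-fold) and Meis2 (1.88-fold), 2 of 6 genes beside a background of 2.22%, in a comparison where the median gene was 1.38 times wider. Pbx2 was 1.74 times wider (1 of 6, background 36.5%). In H3K27ac 5 of 7 were lower in MMTV-CAF, by 6.23-fold at Meis1, 4.03-fold at Meis2, 2.12-fold at Meis3, 1.68-fold at Pbx3 and 1.67-fold at Pknox2 (background 23.8%), and 0 were higher (background 13.6%). Without scaling only Meis1 and Meis2 were lower, Meis3 had a log2 ratio of -0.04, Pbx3 and Pknox2 turned to 0.30 and 0.31, and Pbx2 and Pknox1 were higher with 0.95 and 1.29. Meis1 and Meis2 thus had their lowest WT widths and scaled H3K27ac sums in MMTV-CAF, whereas the H3K4me3 fold of both was higher there than in the other WT lists. These comparisons share lists, so they are not separate evidence.

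Many acetylated sites were not shared by the types. Of the 59 MEF WT summits in the 7 windows, 19 had an MMTV-CAF WT summit within 500 bp, 32.2% with a Wilson 95% interval of 21.7% to 44.9%, beside 63.3% of all MEF WT summits. Meis1 gave 4 of 24 and Meis2 2 of 14, whereas Pknox1 gave 4 of 4. In wound-healing WT 23 of 59 were present (39.0%, interval 27.6% to 51.7%, all summits 51.8%). Of the 54 wound-healing WT summits, 22 had one in MEF WT and 22 in MMTV-CAF WT (each 40.7%, 28.7% to 54.0%), beside 69.6% and 67.7% of all. The 39 MMTV-CAF WT summits differed from this, as 18 had one in MEF WT (46.2%, 31.6% to 61.4%), beside 52.1% of all, and 21 in wound-healing WT (53.8%, 38.6% to 68.4%), beside 41.3%. The intervals, here and below, cover counting error over summits and not differences between cultures. They take summits as separate, although many lie in the same gene.

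**Figure D4:**
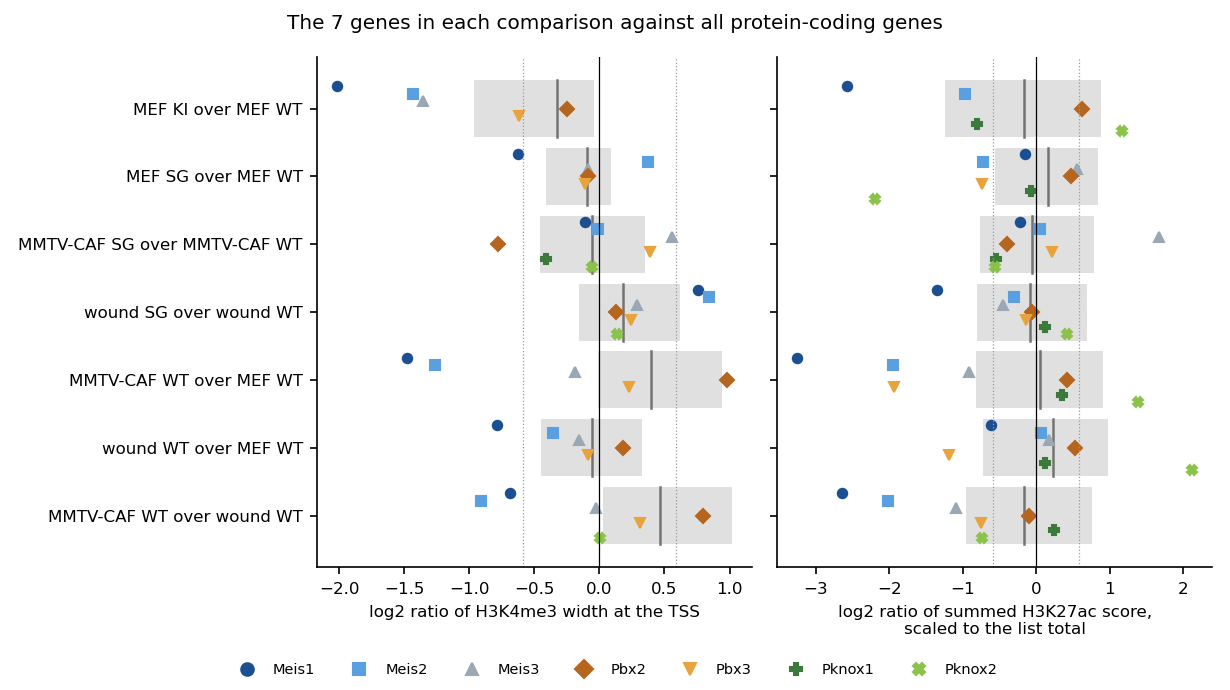
Log2 ratio of H3K4me3 width at the TSS (left) and of the summed H3K27ac score scaled to the list total (right) in 4 deletion comparisons and 3 comparisons of WT types, 1 symbol per gene with a value in both lists. Grey bars span the 10th to 90th percentile of all protein-coding genes, the grey line is their median and dotted lines mark 1.5-fold. Meis1 lay left of the bar in 5 of the 7 comparisons of width and 4 of those of H3K27ac.

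The Prrx1 mutant and deleted lists were then set beside WT of the same type. In MEF KI, 4 of 5 genes had a narrower H3K4me3 region, Meis1 by 4.05-fold, Meis2 by 2.71-fold, Meis3 by 2.56-fold and Pbx3 by 1.54-fold. In this list 25.1% of all genes were narrower and the median gene had a log2 ratio of -0.33. None of the 5 was wider (background 0.524%). In H3K27ac Meis1 was lower by 5.97-fold, Meis2 by 1.95-fold and Pknox1 by 1.74-fold, 3 of 5 beside 29.8% of all genes, while Pbx2 and Pknox2 were higher by 1.54-fold and 2.25-fold, 2 of 5 beside 17.3%. Without scaling to the list total both were lower instead, with log2 ratios of -0.90 and -0.35, and in the gene body alone, without the flanks that hold other promoters, the Pbx2 ratio was -0.18. Meis3 and Pbx3, with no KI summit, could not be given a ratio. The KI list was also the smallest of its mark, and the part of this in the Meis values was not tested. Relative to the median gene, the log2 width ratios were -1.69 at Meis1, -1.11 at Meis2, -1.03 at Meis3 and -0.29 at Pbx3.

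The MEF SG list, in which the same gene was disrupted by another route, was set beside the same WT list. Meis1 alone was narrower, by 1.54-fold, 1 of 5 beside 5.05% of all genes, and 0 were wider (background 0.599%). At Meis1 the SG list held 2 regions with a gap of 439 bp, which together spanned 14103 bp, beside the single 14328 bp region in WT, so the narrower value went with a split of the region, and its outer ends lay at nearly the same places. Meis2 was 1.30 times wider by its widest region, but its joined regions spanned 24159 bp in WT and 22419 bp in SG. In H3K27ac Meis2 was lower by 1.65-fold, Pbx3 by 1.66-fold and Pknox2 by 4.56-fold, 3 of 7 beside 9.25%, and 0 were higher (background 20%). Without scaling only Pknox2 was lower, Meis2 and Pbx3 had log2 ratios of -0.38 and -0.40, and Meis3 and Pbx2 were higher with 0.89 and 0.81. Pknox2 went from 6 summits to 2 in SG but to 7 in KI.

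In MMTV-CAF, Meis1 and Meis2 differed little between SG and WT, with widths 1.08 and 1.01 times narrower and log2 ratios of scaled H3K27ac of -0.22 and 0.05. With lists cut to equal size the Meis1 H3K27ac ratio turned to 0.71. Pbx2 was narrower by 1.72-fold, 1 of 7 beside 5.86%, as its region no longer reached upstream of the first TSS, and 0 were wider (background 4.97%). Meis3 was higher in H3K27ac by 3.18-fold, 1 of 7 beside 14.7%, and 0 were lower (background 15.9%). The −log10 p at its promoter site was 19.5 in WT and 67.2 in SG, and SG listed a further summit of 8.72.

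In wound-healing fibroblasts the widest region was wider in SG by 1.69-fold at Meis1 and by 1.79-fold at Meis2, 2 of 6 beside 11.6% of all genes, and 0 were narrower (background 1.73%). At Meis1 the WT list held 3 regions with gaps of up to 476 bp that together spanned 13949 bp, beside 1 region of 14033 bp in SG, so the difference lay in how the regions were joined, over nearly the same span. At Meis2 the joined span itself differed, from 17147 to 31583 bp. H3K27ac did not follow at Meis1, where the scaled sum was 2.54-fold lower in SG, 1 of 7 beside 18%, and 0 of 7 were higher (background 12.6%). Without scaling 3 were higher, Pbx2, Pknox1 and Pknox2, with log2 ratios of 0.63, 0.79 and 1.10. The Meis1 window held 10 H3K27ac summits in WT and 6 in SG. The WT summits at 142, 143, 145 and 147 kb lay past the end of Meis1. That flank holds the start of the long non-coding gene 8430419K02Rik, and SG listed no summit there.

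The share of WT summits still listed after deletion was taken next. Of the MEF WT summits in the 7 windows, 16 of 59 had a KI summit within 500 bp (27.1%, Wilson interval 17.4% to 39.6%), beside 44.3% of all summits, and 38 of 59 had an SG summit (64.4%, 51.7% to 75.4%), beside 68.2%. The KI share was uneven over the genes. It was 1 of 24 at Meis1, 3 of 14 at Meis2, 0 of 6 at Pbx3 and 0 of 1 at Meis3. It was 4 of 4 at Pbx2, 6 of 6 at Pknox2 and 2 of 4 at Pknox1. In MMTV-CAF SG 25 of 39 were present (64.1%, 48.4% to 77.3%), beside 63.9%. In wound-healing SG 24 of 54 were present (44.4%, 32.0% to 57.6%), beside 67.7%, and Meis1 gave 2 of 10, Meis2 5 of 17 and Pbx2 3 of 7, whereas Pknox2 gave 10 of 14, Pknox1 2 of 2 and Meis3 and Pbx3 1 of 2 each. Within 1 kb the wound-healing share was 68.5% beside 83.9% of all summits, that of MEF SG 67.8% beside 79.7%, and that of MMTV-CAF SG 76.9% beside 75.2%. The wound-healing share over the 7 genes together was thus below that of all summits at both distances, while its place among the types depended on the distance. At Pknox2 all 6 MEF WT summits had a KI summit and 3 of 6 had an SG summit, the reverse of Meis1, where 1 of 24 and 16 of 24 did.

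Other TALE homeobox genes were measured in the same way, with the Pbx-interacting protein gene Pbxip1, 10 genes in all. A region over a TSS was listed for 7 or 8 of them in each list, and over 4 kb for 4 in every WT list, the TGF-beta repressor gene Tgif1 and the Iroquois genes Irx1, Irx2 and Irx5. Irx4 and Irx6 had none in any list. Tgif1 stayed broad throughout, with 8270, 7129 and 7688 bp in MEF WT, KI and SG, 10809 and 10362 bp in MMTV-CAF and 7301 and 9557 bp in wound-healing fibroblasts. Irx1 and Irx2 spanned 6670 and 5255 bp in MEF WT, 2428 and 1116 bp in KI and 3646 and 1141 bp in SG, and Irx5 had 6722 bp, none and 6704 bp. In the adult WT lists these Irx regions ran from 4375 to 8534 bp. Across the 10 genes, 3 of 7 were narrower in MEF KI, 2 of 8 in MEF SG, 0 of 7 in MMTV-CAF SG and 0 of 8 in wound-healing SG, beside 25.1%, 5.05%, 5.86% and 1.73% of all genes. Only 1 was wider in these 4 comparisons, Irx2 in MMTV-CAF SG (named after its value was seen). Of all genes 0.524%, 0.599%, 4.97% and 11.6% were wider in them. Between MMTV-CAF and MEF WT, 1 of 7 was narrower and 0 wider, beside 2.13% and 29% of all genes.

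The 39 Hox genes, which encode the partners of these cofactors, had a region over 4 kb at 10 (WT), 7 (KI) and 7 (SG) genes in MEF, at 15 (WT) and 18 (SG) in MMTV-CAF, and at 12 (WT) and 19 (SG) in wound-healing cells. The shares of all genes over 4 kb, given above, ran from 1.48% to 15.2%. In wound-healing SG 12 of 27 were wider than in WT and 1 narrower, beside 11.6% and 1.73% of all genes. In MEF KI 6 of 12 were narrower and 4 wider, beside 25.1% and 0.524%, and neighbours within a Hox cluster can share a region. Only these 12 had a region in both lists, as 28 Hox genes had one over a TSS in MEF WT and 15 in KI.

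The genes with the most similar pattern were sought over 14 values, the percentiles of H3K4me3 width and of summed H3K27ac in 7 lists each. For Meis2 the nearest among the genes reported here was Rbms3, with a mean difference of 1.68 percentile points. For Meis1 they were Mdm2 (4.76) and Trmt2a (5.29), for Pbx2 Hgs (2.34) and Pnkd (2.52), and for Meis3 Cep70 (2.90) and Rnpep (3.06). Pbx3 was nearest to Btbd7 (6.07) and Slc12a2 (6.61), Pknox1 to Nfya and its overlapping neighbour AI314976 (both 3.55), and Pknox2 to Eng (7.60) and Tada2b (9.10). Among the members themselves the closest pair was Meis1 and Meis2 (6.41), followed by Pbx2 and Meis2 (11.9) and by Pknox1 and Pknox2 (15.0), and the most distant was Meis2 and Meis3 (42.7).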

How the data were processed

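Per the submitters' notes and the study's methods, reads were cleaned by Trimmomatic, placed on mm9 by Bowtie, and turned into peaks by MACS2 with a matching input, giving 1 list per library. PRRX1 ChIP was done in duplicate according to the methods, and it is not stated whether a list pools duplicates. In the lists of H3K27ac and PRRX1 the authors deposited summits of 1 bp, each with a −log10 p and without a width. The deposited H3K4me3 lists hold regions with a fold (a ratio over input), a −log10 p and a −log10 q, and also a whole-number score, which was not used. Read depth is unknown. The 7 inputs were not analysed here.

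Genes, TSSs and sequence came from NCBIM37 (mm9) with GENCODE vM1, and 0 intervals lay beyond a chromosome end. Per gene, the widest H3K4me3 region covering a TSS, the H3K27ac summits and their summed −log10 p, and PRRX1 summits were taken, the last 3 over the body with 10 kb flanks. Sums were divided by the list total for comparisons, so they still depend on calling. The members and the lists of other genes were chosen with earlier results of these data known. Of PRRX1 sites, those shared by types and the highest per type were named, and of similar genes the nearest 2 per member, 1 of which is not reported here. Scripts that compute these values were tested on simulated data. Python 3.11.15, numpy 2.4.6 and matplotlib 3.10.9 were used. Alternatives changed the TSS rule, flanks, thresholds, scaling and list sizes.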

Additional observations from a re-analysis of the deposited data

Results flagged for a closer look

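The H3K4me3 width at Meis1 stood out because its difference from WT had opposite signs in different fibroblast types. On the log2 scale the MEF ratios to WT were -2.02 (KI) and -0.63 (SG), and the wound-healing ratio was 0.76. Each value compares 1 list with 1 list, and the difference between types was not tested. Joined across gaps of up to 1 kb, the Meis1 start regions of MEF spanned 14328 (WT), 3542 (KI) and 14103 bp (SG), and those of wound-healing cells 13949 (WT) and 14033 bp (SG).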

How the results depend on the processing

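Over 42 counts and shares and 86 ratios of single genes, 282 and 462 values were recomputed. Of the former 215 stayed within the limit for no change (counts within 1.5 times, shares within their Wilson interval), and of the latter 403 kept their side of 1.5-fold or stayed under it, 53 changed side and 6 turned from a difference of 1.5-fold or more. Depth is unknown, PRRX1 summits were few, and no replicate could be left out. No paired analysis was possible because every group has 1 library and replicate numbers pair no samples. A joint fit of SG against WT over the 3 types was not run.

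Counts under altered settings, here and below, were taken at the 7 genes only. The share of all genes under each altered setting was not computed, so a larger count need not set these genes apart. Counts of genes over 4 kb changed as follows. With summed width in the window they were 4 in MEF WT, 3 in KI, 4 in SG, 4 in wound-healing WT and 5 in SG. Over 3 kb they were 2 in MEF KI, 4 in wound-healing WT and 5 in SG. Over 5 kb they were 3 (WT) and 2 (SG) in MMTV-CAF, and among the widest 5% of each list 2 in MEF KI and 2 in both MMTV-CAF lists.

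For H3K4me3, MEF KI had 2 narrower genes at a −log10 p of at least 10, of the 2 that still had a value in both lists. MEF SG had 0 narrower with summed width, with widths scaled to the median gene and at 2-fold. MMTV-CAF SG had 0 narrower with summed width and at 2-fold, and 1 wider with scaled widths. Wound-healing SG had 1 wider with summed width, 1 with scaled widths and 0 at 2-fold. Among WT types, MMTV-CAF had 2 wider than MEF and 2 wider than wound-healing with a region up to 1 kb from the TSS, 0 and 0 with scaled widths, and 0 and 0 at 2-fold. At 2-fold, wound-healing had 0 narrower than MEF, and MMTV-CAF 0 narrower than wound-healing.

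For H3K27ac, MEF KI had 1 lower at 2-fold. It had 1 higher with the gene body alone, with 5 and 50 kb flanks, by number of summits, at a −log10 p of at least 10, with lists of equal size and at 2-fold, and 0 with sums as deposited. MEF SG had 1 lower with sums as deposited and 1 at 2-fold, and 1 higher with 50 kb flanks and 2 with sums as deposited. MMTV-CAF SG had 1 lower with 50 kb flanks, 2 at a −log10 p of at least 10 and 1 with equal lists, and 0 higher in the gene body alone and 2 with equal lists. Wound-healing SG had 3 lower and 1 higher by number of summits, and 3 higher with sums as deposited. MMTV-CAF WT had 3 higher than MEF WT with sums as deposited. Wound-healing WT against MEF WT had 5 lower with sums as deposited, 1 with equal lists, 1 at 2-fold, and 2 higher at a −log10 p of at least 10. MMTV-CAF WT against wound-healing WT had 2 lower with sums as deposited, 3 at a −log10 p of at least 10 and 3 at 2-fold, and 2 higher with sums as deposited.

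PRRX1 summits at a −log10 p of at least 10 numbered 0 in MEF and 2 in each adult type. In wound-healing cells they were 5 at a −log10 p of at least 5 and 4 with equal lists. Within 1 kb, SG held 68.5% of the wound-healing WT summits at the 7 genes and 83.9% of all.

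The sign turned in 47 values of single ratios (log2), of which 41 started from a difference under 1.5-fold (9 of these passed 1.5-fold) and 6 from a larger one, as follows. In MEF KI, H3K27ac at Pbx2 became -0.18 in the gene body alone and -0.90 with sums as deposited, and at Pknox2 -0.35 with sums as deposited. Meis1 width in wound-healing SG became -0.0078 as summed width. Between MMTV-CAF and wound-healing WT, H3K27ac became 0.30 at Pbx3 and 0.31 at Pknox2 with sums as deposited. The type comparisons and the joining of regions were chosen after seeing the data. Where a call rests on scaling, the cause was not tested.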
